A study of Mus musculus with 35 samples.

Results

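The clustered protocadherins are cell surface adhesion proteins encoded side by side in the alpha, beta and gamma gene clusters, which in the mouse lie together on chromosome 18. They were followed here through RNA-seq of neuroectoderm (NE) cells made from mouse embryonic stem cells (ESCs) that carry normal, catalytically mutant or deleted Tet3. Members were chosen by gene symbol alone, as the genes named for the alpha, beta or gamma cluster (Pcdha, Pcdhac, Pcdhb, Pcdhga, Pcdhgb and Pcdhgc followed by a number). This gave 45 genes of the 18930 listed in any of the 3 expression tables: 7 alpha, 16 beta and 22 gamma genes. RefSeq annotates 58 such genes on the GRCm38 assembly (14 alpha, 22 beta and 22 gamma), so 13 were listed in no table, 7 of them alpha and 6 beta genes. All 45 were listed on day 3. The Dnmt1 experiment listed 34 and the Tet3-CD experiment 35, and 33 were shared by all 3 tables. The tables hold only genes above a level that the sources used here do not give, so a member that is not listed was low rather than known to be off.

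As background, each alpha or gamma gene has its own promoter and a variable exon that codes for the extracellular part of the protein. That exon is spliced to constant exons shared by the whole cluster, whereas each beta gene is a single coding exon. Proteins of the clusters bind copies of themselves on neighbouring cells, and in many neurons a cell uses only a few of the promoters, a choice that involves DNA methylation of the promoters and looping by CTCF and cohesin. The C-type genes (Pcdhac1, Pcdhac2, Pcdhgc3, Pcdhgc4 and Pcdhgc5) sit at the 3′ end of their clusters and are used more evenly from cell to cell. TET enzymes oxidize methylated cytosine, and DNMT1 copies methylation onto newly made DNA, so the study asked how the loss of TET3's catalysis, the loss of TET3 and the addition of DNMT1 change gene expression in NE cells.

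All cells derive from v6.5 ESCs, a male line of mixed 129 and C57BL/6 background that is grown on feeder cells, and were turned into NE by withdrawing LIF and adding 1 µM retinoic acid for 72 h. Tet3+/+ cells are unedited at Tet3, Tet3m/m cells carry substitutions in the iron-binding site of the catalytic domain on both alleles, and Tet3-/- cells lack exon 4, which leaves an out-of-frame transcript. Day 3 NE cells comprised 3 Tet3+/+, 3 Tet3m/m and 2 Tet3-/- samples, described as independent clones. The Dnmt1 experiment had 2 samples of each genotype with an empty vector (EV) and 2 with a vector that drives myc-tagged Dnmt1 from a CAG promoter, all selected with blasticidin. The Tet3-CD experiment had 1 sample of each genotype with EV and 1 with the TET3 catalytic domain (Tet3-CD); by the study's methods these cells were collected later than the time in the labels. The clones behind both vector experiments are not given in the sources used here, so clone and genotype cannot be told apart there, and p-values measure the spread between samples that may share a culture.

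Depth was 36594650 to 47710548 recovered reads per sample on day 3, 31155842 to 50845950 for the Dnmt1 experiment and 33475041 to 37707719 for the Tet3-CD experiment. Values below are the authors' normalized counts, in which 1 read is worth 0.804 to 1.30. Tet3 itself was lower in Tet3m/m cells on day 3 (log2 fold change -1.05) and with EV (-1.53), and in Tet3-/- cells on day 3 (-1.21). Because reads outside exon 4 remain, the total for Tet3 does not check the knockout, and EV Tet3-/- cells had 2520.3 and 2571 against 2957 and 3075 in EV Tet3+/+. Dnmt1 was raised by its vector by 0.64, 0.90 and 1.06 on the log2 scale in Tet3+/+, Tet3m/m and Tet3-/- cells. All 10 neural progenitor markers were listed, while the 8 pluripotency markers were listed too, so the cultures hold RNA of both kinds. Replicates of the Dnmt1 experiment lay closer together (mean chi-square per gene 3.90 to 10.7 between samples of a group) than those of day 3 (13.5 to 85.1), and no pair was identical. The other genes of chromosome 18 had a median log2 ratio between -0.07 and 0.10 against Tet3+/+ in every sample. Chromosomes 6 and 8, which hold no member, were shifted: the median on chromosome 8 was -0.38 to -0.30 in day 3 Tet3m/m, -0.46 to -0.45 in EV Tet3m/m and -0.38 to -0.36 in EV Tet3-/- samples, and on chromosome 6 it was -0.30 to -0.18 in day 3 and -0.25 to -0.22 in EV Tet3m/m samples. In the 2 day 3 Tet3-/- samples chromosome 8 stood at 0.17 and -0.32. The part of these shifts in the members' differences was not tested.

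In day 3 Tet3+/+ cells the gamma genes made up most of the family's RNA. The gamma cluster held 78.3% to 84.1% of the summed normalized count of all members over the 8 day 3 samples, the beta cluster 14.2% to 20.1% and the alpha cluster 1.40% to 2.87%. Mean normalized counts in Tet3+/+ cells ran from 17.2 to 1582 for gamma genes (median 126), from 8.75 to 396 for beta genes (median 51.9) and from 6.98 to 32.8 for alpha genes (median 12.8). These levels count reads per gene and not per length.

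Pcdhgc3, a C-type gamma gene, led the family with 1590.2, 1594 and 1561 normalized counts in the 3 Tet3+/+ samples. The next gamma genes were Pcdhga7 with 351, 346 and 476, and Pcdhgb6 with 346, 318 and 257. Pcdhgc3 therefore stood far above every other member in each sample, and it held 25.0% to 35.2% of the gamma sum on day 3. The other C-type gamma genes were lower: Pcdhgc4 had 129, 118 and 74.1 and Pcdhgc5 had 127, 119 and 107.

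Among the beta genes Pcdhb22, the last of its cluster, led with 361, 355 and 470.5. Pcdhb17 (78.1, 87.8 and 109) and Pcdhb21 (95.4, 56.0 and 89.0) followed and overlapped each other. Among the alpha genes Pcdha11 was highest with 49.2, 20.5 and 28.7, ahead of Pcdha2 with 9.64, 13.1 and 21.7 and the C-type gene Pcdhac2 with 15.4, 5.60 and 17.8. Pcdha2 and Pcdhac2 overlapped, and the other C-type alpha gene, Pcdhac1, was not listed.

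Per kb of exon not shared with another gene, the levels in day 3 Tet3+/+ cells were 616 normalized counts for Pcdhgc3, 154 for Pcdhga7, 129 for Pcdhb22, 120 for Pcdhgb6 and 101 for Pcdhga2. Pcdhgc3 thus led on this scale too, and Pcdha11, the highest alpha gene, reached 13.7. Bases that an exon of another gene also covers, the shared constant exons among them, made up 22.7% to 45.8% of the exon bases of gamma genes. In alpha genes they made up 50.1% to 54.4%, except for 81.3% in Pcdha6. In beta genes they made up 0%. A read that lies wholly in a shared exon cannot be given to a single gene, so alpha and gamma levels rest mainly on the variable exons, and reads of near-identical beta or gamma paralogs may be split in a way that the counts do not show.

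**Figure D1:**
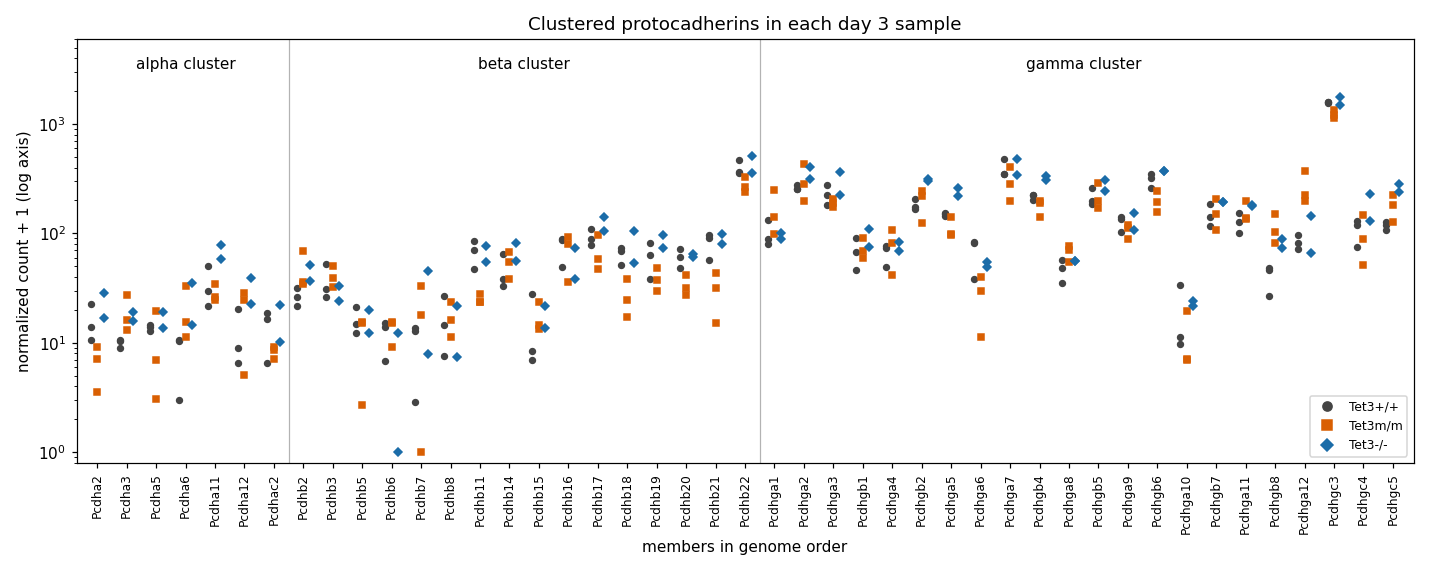
Normalized count plus 1 (log axis) of the 45 members in each day 3 sample, in genome order; circles are the 3 Tet3+/+, squares the 3 Tet3m/m and diamonds the 2 Tet3-/- samples. Pcdhgc3 lies above 1000 in every sample, whereas alpha genes stay below 100, and Pcdhga12 shows the 3 Tet3m/m samples above all others.

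The comparison of day 3 Tet3m/m with Tet3+/+ cells addressed the loss of TET3's catalytic activity. Because Tet3 RNA was also lower in Tet3m/m cells, lost catalysis and a lower amount of TET3 cannot be told apart here. A pair of neighbouring gamma genes at the 3′ end of the A and B genes, Pcdhgb8 and Pcdhga12, was higher in Tet3m/m cells, and a pair of beta genes, Pcdhb11 and Pcdhb21, was lower. The rest of the family did not pass the test. By limma, with an adjusted p below 0.05 and a fold change above 1.5, 2 of 45 members rose, where 5.06% of all 17915 genes tested did, and 2 fell, where 5.19% did. Both counts thus stood near the background. The median log2 fold change was -0.17 for alpha, -0.34 for beta and 0.02 for gamma genes, against 0.00 for all genes.

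Pcdhga12 had 71.3, 80.3 and 95.9 normalized counts in Tet3+/+ and 370, 223 and 196 in Tet3m/m samples. The groups did not overlap, and the log2 fold change was 1.61 (SE 0.34, n = 3 and 3, limma adjusted p = 0.0108). Its neighbour Pcdhgb8, which RefSeq lists as a transcribed pseudogene, had 45.3, 47.6 and 25.7 in Tet3+/+ and 151, 102 and 81.5 in Tet3m/m samples. Here too the groups were apart, with a log2 fold change of 1.47 (SE 0.34, limma adjusted p = 0.0177). In bulk RNA, more cells that use a promoter and more RNA per cell cannot be told apart, for these genes and for all that follow.

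Pcdhb11 had 69.4, 46.7 and 85.0 normalized counts in Tet3+/+ and 22.5, 27.0 and 22.4 in Tet3m/m samples (log2 fold change -1.41, SE 0.35, limma adjusted p = 0.0218). Pcdhb21 had 95.4, 56.0 and 89.0 against 30.7, 42.2 and 14.3 (-1.52, SE 0.42, adjusted p = 0.0347). All Tet3m/m samples lay below all Tet3+/+ samples for both genes. Beyond these 4, the differences were smaller or the spread wider: Pcdhb18 differed by -1.34 with an adjusted p of 0.0522 in limma. Pcdhgc3 differed by only -0.37, with 1351, 1208 and 1128 in Tet3m/m samples and a limma adjusted p of 0.0459, which is below the fold threshold. No alpha gene passed, and the alpha values of single samples ranged from 2.05 to 33.6 in Tet3m/m cells. Without Tet3+/+ replicate 1 the count of called members was 2, without Tet3+/+ replicate 3 it was 1 and without Tet3m/m replicate 1 it was 2. Pcdhb11 was lost without Tet3+/+ replicate 1 or 3, and Pcdhb21 without these or Tet3m/m replicate 1 or 3. Pcdhgb8 was lost without Tet3+/+ replicate 3 or Tet3m/m replicate 1 or 2. Only Pcdhga12 stayed called whichever Tet3+/+ or Tet3m/m sample was left out. DESeq2 on the recovered reads called 7 and edgeR 4.

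For Tet3-/- cells the day 3 comparison with Tet3+/+ cells gave no call, although most members lay above Tet3+/+. Of 45 members, 38 had a log2 fold change above 0, with a median of 0.37, while 8670 of all 17915 genes did, with a median of -0.01. The medians were 0.81 for alpha, 0.14 for beta and 0.39 for gamma genes. By limma 0 of 45 members were called, where 0.642% of all genes were, and 6 had an unadjusted p below 0.05, all of them higher. Of all genes 20.1% had such a p and 10.8% were also higher, so the members' 6 of 45 stood near the background. edgeR also called 0, and DESeq2 called 1, Pcdhgc5.

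Pcdhgc5, a C-type gamma gene, had 127, 119 and 107 normalized counts in Tet3+/+ and 240 and 283 in Tet3-/- samples. The groups did not overlap, and the log2 fold change of 1.15 (SE 0.27) had a limma adjusted p of 0.0671. The other members below 0.05 before adjustment were Pcdha11 (1.09), Pcdhgb8 (1.05), Pcdhgb2 (0.77), Pcdhga5 (0.66) and Pcdhgb4 (0.58), named after their values were seen. Pcdhgc3 did not separate, with 1496 and 1764 in Tet3-/- samples. Pcdhgc5 became the single called member without Tet3m/m replicate 1, without Tet3m/m replicate 3 and with only the compared groups in the fit.

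Set directly against each other on day 3, the mutants differed at 7 members. By limma 6 of 45 were higher in Tet3-/- than in Tet3m/m cells, where 5.41% of all genes were, and 1 was lower, where 4.33% were. The higher ones were the beta genes Pcdhb21 (log2 fold change 1.69), Pcdhb18 (1.58) and Pcdhb11 (1.38) and the gamma genes Pcdhga5 (1.10), Pcdhgb6 (0.94) and Pcdhgb4 (0.88). The lower one was Pcdhga12, with a log2 fold change of -1.38.

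Pcdhb18 shows the pattern, with 53.0 and 105 normalized counts in Tet3-/- samples and 23.6, 37.1 and 16.3 in Tet3m/m samples (SE 0.45, limma adjusted p = 0.0461). Pcdhga5 had 258 and 217 against 141, 96.1 and 96.7 (SE 0.25, limma adjusted p = 0.0173). Pcdhga12 had 64.7 and 145 in Tet3-/- samples, the lower of them below every Tet3+/+ sample and the higher above. The median over the members was 0.59, against -0.01 for all genes.

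This comparison leaned on single libraries. The count of called members, 7, fell to 3 without Tet3+/+ replicate 1, to 3 without Tet3+/+ replicate 3, to 4 without Tet3m/m replicate 2, to 2 without Tet3m/m replicate 3, to 1 without Tet3-/- replicate 1 and to 2 without Tet3-/- replicate 2. It was 0 with only the compared groups in the fit, 7 by edgeR and 9 by DESeq2.

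The EV samples of the Dnmt1 experiment repeat the genotype comparisons in transfected cells, and there the family differed at far more members. With EV, Tet3m/m cells had lower levels of the last 5 beta genes (Pcdhb18, Pcdhb19, Pcdhb20, Pcdhb21 and Pcdhb22) and of 13 of 21 gamma genes, Pcdhgc3 among them. Pcdhga12 was higher, as was the alpha C-type gene Pcdhac2. By limma 18 of 34 members fell, where 10.9% of all 18055 genes tested did, and 2 rose, where 10.3% did. The median log2 fold change was -1.50 for beta and -0.92 for gamma genes, against 0.01 for all genes. Of the 29 members with a mean of at least 10 in EV Tet3+/+ cells, 17 fell and 2 rose. Of all such genes 11.2% fell and 9.92% rose.

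Pcdhga7 had 205 and 213 normalized counts in EV Tet3+/+ and 41.1 and 24.7 in EV Tet3m/m samples (log2 fold change -2.68, SE 0.21, n = 2 and 2, limma adjusted p = 1.0e-09). Pcdhb22, the leading beta gene, had 148 and 173 against 31.1 and 31.3 (-2.32, SE 0.25, limma adjusted p = 7.6e-08). Pcdhgb4 had 170 and 138 against 46.6 and 41.7 (-1.77). In all 3 genes the Tet3m/m samples lay far below the Tet3+/+ samples.

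The remaining large differences were in beta genes with few reads. Pcdhb21 had 19.8 and 18.6 normalized counts in EV Tet3+/+ samples and 0 and 7.81 in EV Tet3m/m samples (log2 fold change -2.76). Pcdhb18 had 13.8 and 11.6 against 1.83 and 1.30, and Pcdhb20 had 11.9 and 4.64 against 0 and 2.60. Their fitted log2 fold changes of -2.42 and -2.16 depend on the pseudocount of 1. With 3 and 2 reads in all in the Tet3m/m samples, the ratio of EV Tet3+/+ to EV Tet3m/m cells was 7.95 for both, with exact 95% intervals for counting error only of 2.41 to 41.2 for Pcdhb18 and 1.87 to 71.2 for Pcdhb20. With only the compared groups in the fit, Pcdhb18, Pcdhb19 and Pcdhb20 were no longer called. Pcdhb19 was also lost by DESeq2 and Pcdhb20 with a pseudocount of 5. Pcdhb21 kept its call in 18 of 19 alternatives and Pcdhb22 in 20 of 20.

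Pcdhgc3 had 1267 and 1163 normalized counts in EV Tet3+/+ and 677 and 608 in EV Tet3m/m samples (log2 fold change -0.92, SE 0.08, limma adjusted p = 1.6e-09). Pcdhgc4 was also lower, with 46.4 and 38.3 against 23.8 and 26.0 (-0.74). That call was kept in 15 of 20 alternatives and was lost by DESeq2 and with only the compared groups in the fit. Pcdhgc5 did not pass the test, with 135 and 97.4 against 83.2 and 93.8. Pcdhac2 moved the other way, with 19.8 and 20.9 against 53.9 and 62.5 (1.47, SE 0.47, limma adjusted p = 0.0132), a call kept in 17 of 19 alternatives. Pcdhga12 had 76.1 and 77.7 against 116 and 148 (0.76, SE 0.28, limma adjusted p = 0.0321), and this call was lost without either EV Tet3+/+ sample or without EV Tet3m/m replicate 2 (largest adjusted p over the alternatives 0.207). Its neighbour Pcdhgb8 did not pass, at 35.6 and 20.9 against 53.0 and 24.7. The count of called members ran from 14 to 20 over the samples left out.

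EV Tet3-/- cells differed from EV Tet3+/+ cells in the opposite direction. By limma 21 of 34 members rose, where 11% of all genes did, and 1 fell, where 13.9% did. The members that rose were 8 of 11 beta genes, 12 of 21 gamma genes, all 3 C-type gamma genes included, and Pcdha11. The one that fell was Pcdhac2. The median log2 fold change was 2.37 for beta and 0.64 for gamma genes, against 0.00 for all genes. With a mean of at least 10 in EV Tet3+/+ cells, 18 of 29 members rose and 1 fell. Of all such genes 10.5% rose and 14.2% fell.

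Pcdha11 had 3.95 and 0 normalized counts in EV Tet3+/+ and 60.1 and 51.8 in EV Tet3-/- samples (log2 fold change 4.67, SE 0.91, limma adjusted p = 0.00019). Its mean in EV Tet3+/+ cells, like that of Pcdhb20 below, was under 10. Both were tested because of higher levels in other groups. The 5 next largest rises were all in beta genes. Pcdhb16 had 5.93 and 16.2 against 74.7 and 86.8 (2.90), and Pcdhb17 had 17.8 and 4.64 against 90.1 and 59.2 (2.85). Pcdhb19 had 13.8 and 11.6 against 91.8 and 83.6 (2.7). Every Tet3-/- sample of these genes lay above every Tet3+/+ sample. Pcdhb20 (2.54) and Pcdhb11 (2.53) completed the group, each from EV Tet3+/+ values below 12. With a pseudocount of 0.1 the calls of Pcdhb11, Pcdhb16 and Pcdhb20 were lost. So were those of Pcdhb11 and Pcdhb16 without EV Tet3+/+ sample a and of Pcdhb11 and Pcdhb20 without sample b (largest adjusted p over the alternatives 0.168, 0.0702 and 0.0521 for Pcdhb11, Pcdhb16 and Pcdhb20), and the fitted value of Pcdha11 ran from 3.18 to 6.46.

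Pcdhgc4 rose the most among the C-type genes, from 46.4 and 38.3 to 186 and 163 (log2 fold change 2.02, SE 0.27, limma adjusted p = 2.5e-06). Pcdhgc5 rose from 135 and 97.4 to 265 and 224 (1.08, SE 0.21, limma adjusted p = 0.00018). Pcdhgc3 rose from 1267 and 1163 to 1850 and 1926 (0.64, SE 0.08, limma adjusted p = 4.2e-07), which lies just above the fold threshold. Pcdhac2 had 19.8 and 20.9 in EV Tet3+/+ and only 3.25 and 2.12 in EV Tet3-/- samples (-2.55, SE 0.47, limma adjusted p = 9.6e-05). Without EV Tet3+/+ sample b, 14 members were called in place of 22, and with a minimum mean of 50 only 12, since most beta genes fall under that level.

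Between the mutants with EV, 25 of 34 members were higher in Tet3-/- cells, where 18.9% of all genes were, and 1 was lower, where 20.6% were. The largest differences were those of Pcdha11 (log2 fold change 5.08), Pcdhb18 (4.79), Pcdhb21 (4.74), Pcdhb20 (4.71), Pcdhb16 (4.56) and Pcdhb19 (4.20). Tet3m/m cells held 2 reads of Pcdha11 in all, 3 of Pcdhb18 and 2 of Pcdhb20, so the ratios of 52.6, 42.8 and 44.9 had exact 95% counting intervals of 14.3 to 439, 14.4 to 210 and 12.1 to 376. Pcdhac2 was again the one lower member (-4.02). With a mean of at least 10 in EV Tet3m/m cells, 17 of 24 members were higher and 1 was lower. Of all such genes 17.8% were higher and 21.3% lower. The members with the largest differences, from Pcdha11 to Pcdhb19, were among the 10 members below that level. They were tested because of higher levels in other groups. This comparison shares its samples with the other EV comparisons and so adds no independent evidence.

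**Figure D2:**
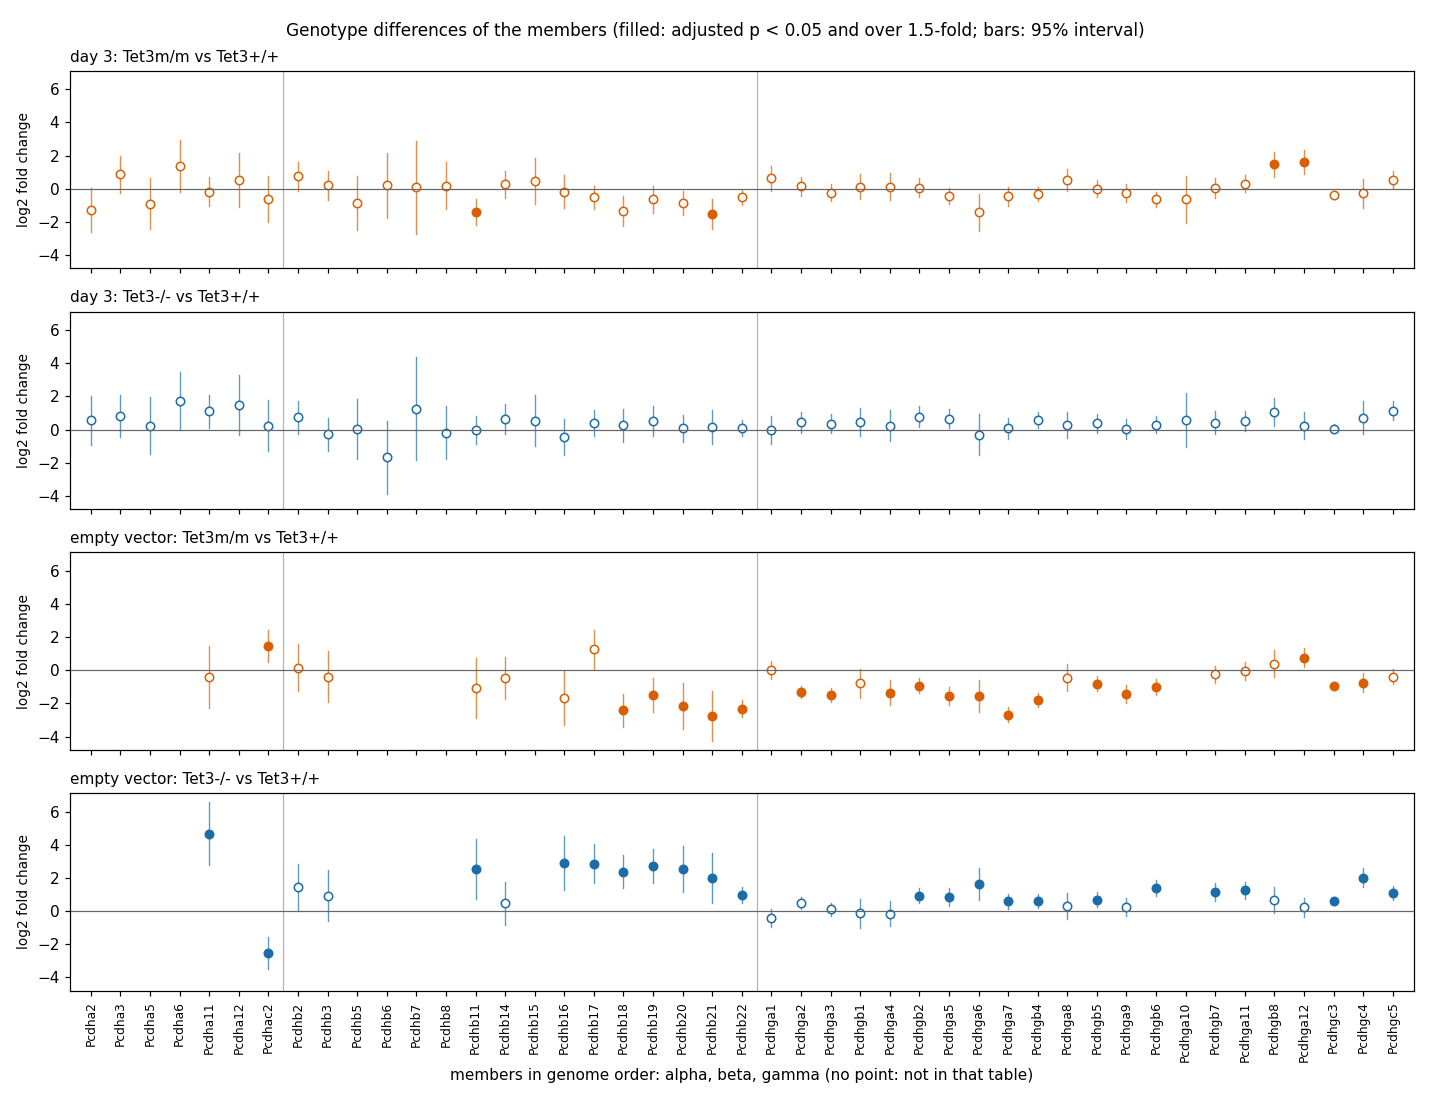
Log2 fold change of each member against Tet3+/+ cells, in genome order, for Tet3m/m and Tet3-/- cells on day 3 and with the empty vector; filled points passed the test, and bars are 95% intervals. With the empty vector the last 5 beta genes lie below 0 in Tet3m/m and above 0 in Tet3-/- cells, while Pcdhac2 goes the other way in both.

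The day 3 and EV samples come from separate cultures and are set side by side here by whether the groups overlap. In Tet3m/m cells, 8 members lay below every Tet3+/+ sample both on day 3 and with EV (8 of the 34 members listed in both, where 13.1% of all 17244 genes tested in both did): Pcdhb18, Pcdhb20, Pcdhb21, Pcdhb22, Pcdhga5, Pcdhgb4, Pcdhgb6 and Pcdhgc3. A single member, Pcdhga12, lay above every Tet3+/+ sample in both, where 11.3% of all genes did. In Tet3-/- cells, 11 of 34 members lay above every Tet3+/+ sample in both, where 14.4% of all genes did, and 0 lay below, where 11.6% did. The 11 were Pcdha11, Pcdhb2, Pcdhga2, Pcdhgb2, Pcdhga5, Pcdhgb4, Pcdhgb6, Pcdhgb7, Pcdhga11, Pcdhgb8 and Pcdhgc5. The sizes differed, since Pcdhb22 for example was 0.52 lower in Tet3m/m cells on day 3 and 2.32 lower with EV on the log2 scale. These members were named after their values were seen.

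The cluster sums are given per sample, without a test. On day 3 the beta sum was 1104, 878 and 1199.9 in Tet3+/+, 911, 745 and 647 in Tet3m/m and 1186 and 1211 in Tet3-/- samples. The Tet3+/+ and Tet3m/m samples overlapped. The gamma sum was 4684, 4528 and 4688 in Tet3+/+ and 5788 and 5653 in Tet3-/- samples, while Tet3m/m samples lay on both sides of Tet3+/+ with 5395, 4298 and 3459. The alpha sum was highest in Tet3-/- cells, with 206 and 174 against 126, 76.6 and 97.9 in Tet3+/+ and 109, 112 and 92.7 in Tet3m/m samples.

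With EV the beta sum of 11 members was 267 and 270.2 in Tet3+/+, 96.9 and 102 in Tet3m/m and 816 and 876 in Tet3-/- samples. The gamma sum of 21 members was 3281 and 3008, 1699 and 1701, and 5025 and 4979 in the same order. The 3 genotypes did not overlap in either sum. The alpha sum of 2 members had another order, with 23.7 and 20.9 in Tet3+/+, 55.7 and 62.5 in Tet3m/m and 63.3 and 54.0 in Tet3-/- samples, so the mutants overlapped each other above Tet3+/+. In Tet3m/m samples this sum was nearly all Pcdhac2, whereas in Tet3-/- samples it was nearly all Pcdha11. The alpha members thus did not rise alike in the mutants. Pcdhgc3 kept a similar part of the gamma sum throughout this experiment, between 32.8% and 40.6% in its 12 samples, so the gamma differences were not those of Pcdhgc3 alone.

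In the Dnmt1 experiment the summed fibroblast markers moved together with the beta and gamma sums. Of the 10 markers of the list, which stand for the feeder cells that the study's methods remove by pre-plating before differentiation, 9 were listed and Fap was not. Their summed normalized count was 19946 to 21709 in EV Tet3+/+, 5067 to 5218 in EV Tet3m/m and 39938 to 40200 in EV Tet3-/- samples, the same order as the beta and gamma sums. On day 3 it was 20126 to 31188 in Tet3+/+, 13859 to 24634 in Tet3m/m and 47947 to 51474 in Tet3-/- samples. Collagen genes made up most of this sum, with Col1a1 the highest, and these genes are also used by other mesenchymal cells. None of the 9 was at 0 in any sample of day 3 or the Dnmt1 experiment. In the Dnmt1 experiment the less abundant Dcn ran from 46.6 to 506 and Lum from 4.64 to 16.2. On day 3 Dcn ran from 264 to 579 and Lum from 1.98 to 20.5. With EV, 5 of the 9 genes fell and 1 rose in Tet3m/m cells, and 5 rose and 1 fell in Tet3-/- cells. The summed pluripotency markers went the opposite way with EV, from 24581 to 24749 in Tet3+/+ to 70585 to 71713 in Tet3m/m and 4786 to 5061 in Tet3-/- samples. Their part in the members' differences was not tested.

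**Figure D3:**
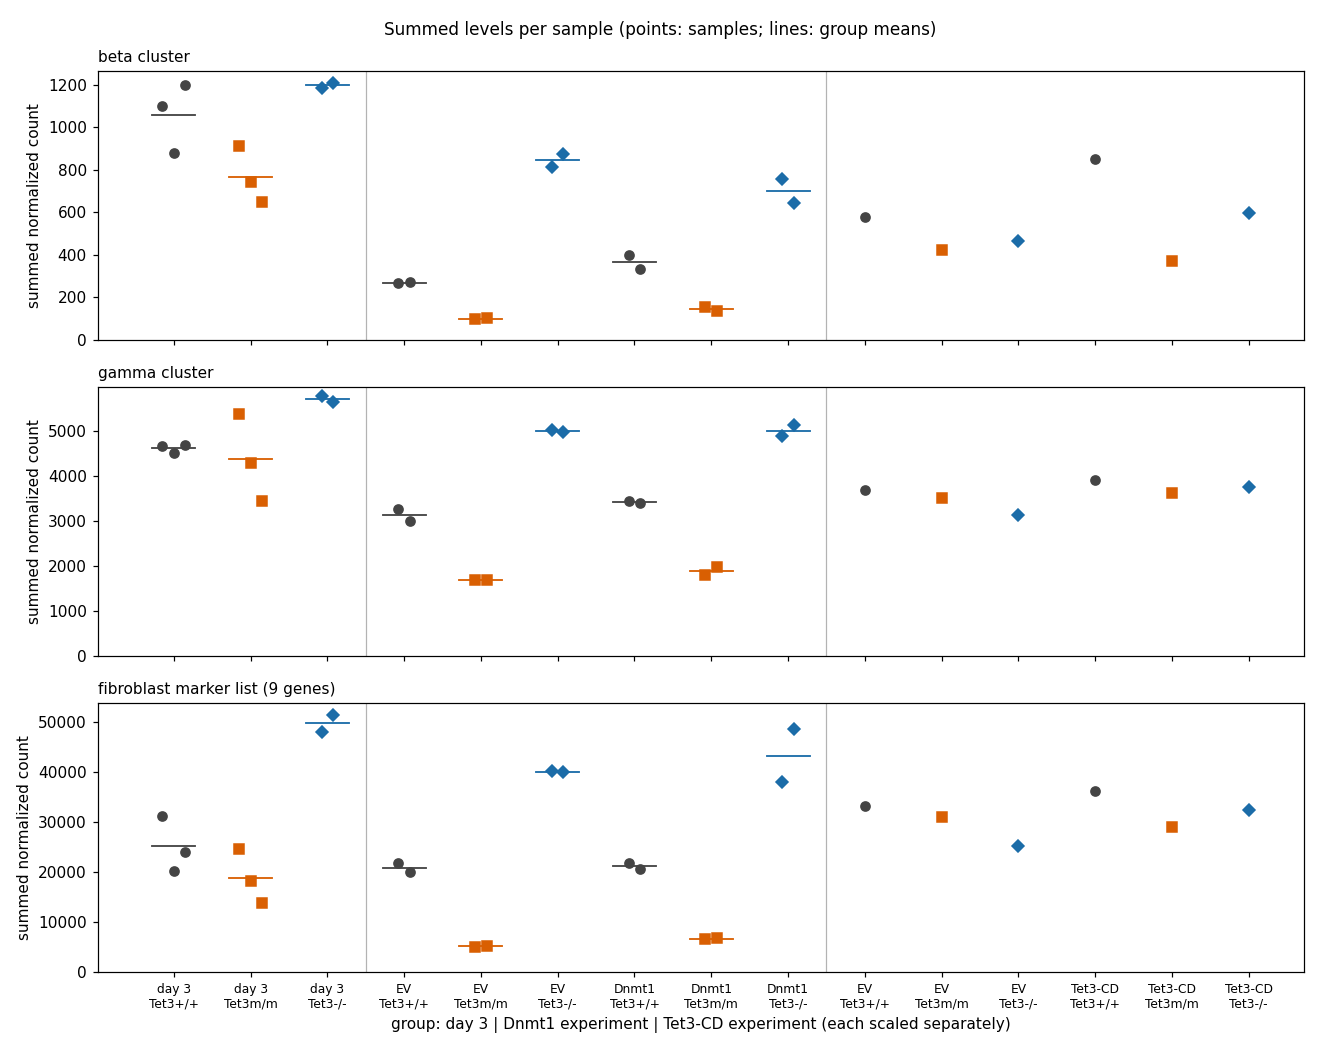
Summed normalized counts of the beta cluster, the gamma cluster and the 9 listed fibroblast markers in each sample (points) with group means (lines), for day 3, the Dnmt1 experiment and the Tet3-CD experiment, which were scaled separately. In the Dnmt1 experiment all 3 sums are lowest in Tet3m/m and highest in Tet3-/- cells with either vector, an order that the Tet3-CD experiment does not show.

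The Dnmt1 vector was compared with EV within each genotype, to ask whether more DNMT1 changes the members. In Tet3+/+ cells no member was called by limma, edgeR or DESeq2, where 1.17% of all genes were called by limma. An unadjusted p below 0.05 was found for 5 of 34 members, all of them higher, and for 19.9% of all genes, 10.1% being higher. The median log2 fold change of the 34 members was 0.17 in Tet3+/+ cells, against 0.00 for all genes. In Tet3-/- cells 0 members were called by limma, edgeR and DESeq2, where limma called 3.53% of all genes, and the median was -0.11. Here 3 of 34 members had an unadjusted p below 0.05, all higher, against 26.3% of all genes, 14.3% being higher. With only the compared groups in the fit, Pcdhb16 became a single called member in Tet3-/- cells.

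In Tet3m/m cells 4 of 34 members rose and 0 fell with the Dnmt1 vector by limma, where 1.78% of all genes rose. All 4 were among those that were lower in EV Tet3m/m than in EV Tet3+/+ cells. Both comparisons use the same EV Tet3m/m samples, so this overlap adds no independent evidence. With a mean of at least 10 in EV Tet3m/m cells, 2 of 24 members rose, where 1.55% of all such genes did. Pcdhga7 had 41.1 and 24.7 normalized counts with EV and 70.6 and 65.8 with Dnmt1 (log2 fold change 1.07, SE 0.21, limma adjusted p = 0.0021). Pcdhga2 had 84.1 and 71.6 with EV and 123 and 115 with Dnmt1 (0.61, SE 0.17, limma adjusted p = 0.0253). The groups did not overlap in either gene, yet with Dnmt1 both stayed far below their EV Tet3+/+ values, which were 205 and 213 for Pcdhga7 and 210.4 and 175 for Pcdhga2.

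The other rises were those of beta genes with few reads. Pcdhb18 had 1.83 and 1.30 with EV and 7.15 and 6.06 with Dnmt1 (log2 fold change 1.57, SE 0.48, limma adjusted p = 0.0396), a ratio of 4.10 with an exact 95% counting interval of 1.16 to 22.1. Pcdhb20 had 0 and 2.60 with EV and 5.36 and 15.6 with Dnmt1 (2.44, SE 0.67, limma adjusted p = 0.0227), a ratio of 9.83 with an interval of 2.44 to 85.8. The count of 4 fell to 2 by DESeq2, to 3 by edgeR and to 1 with only the compared groups. It was 2 without EV Tet3m/m replicate 2, 2 without Dnmt1 Tet3m/m replicate 1 and 2 without Dnmt1 Tet3m/m replicate 2. The call of Pcdhga7 was lost only without EV Tet3m/m replicate 2, where its adjusted p was 0.0501.

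Whether the Dnmt1 vector acted differently between genotypes was tested as a difference of differences. By limma no member was called for Tet3m/m against Tet3+/+ cells, where 0.604% of all genes were, or for Tet3-/- against Tet3+/+ cells, where 3.99% were; edgeR and DESeq2 also called 0. In each case 1 of 34 members had an unadjusted p below 0.05, against 10.9% and 23% of all genes. Pcdhga7 had the smallest adjusted p in the former, with a difference of 1.00 (95% interval 0.37 to 1.63, adjusted p = 0.134). It became the single called member without EV Tet3m/m replicate 1. The rises in Tet3m/m cells are thus not shown to differ from the changes in Tet3+/+ cells. Of the 9 listed fibroblast markers, 4 also rose with the Dnmt1 vector in Tet3m/m cells, to a sum of 6511 to 6754, and their part in the rise of the 4 members was not tested.

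**Figure D4:**
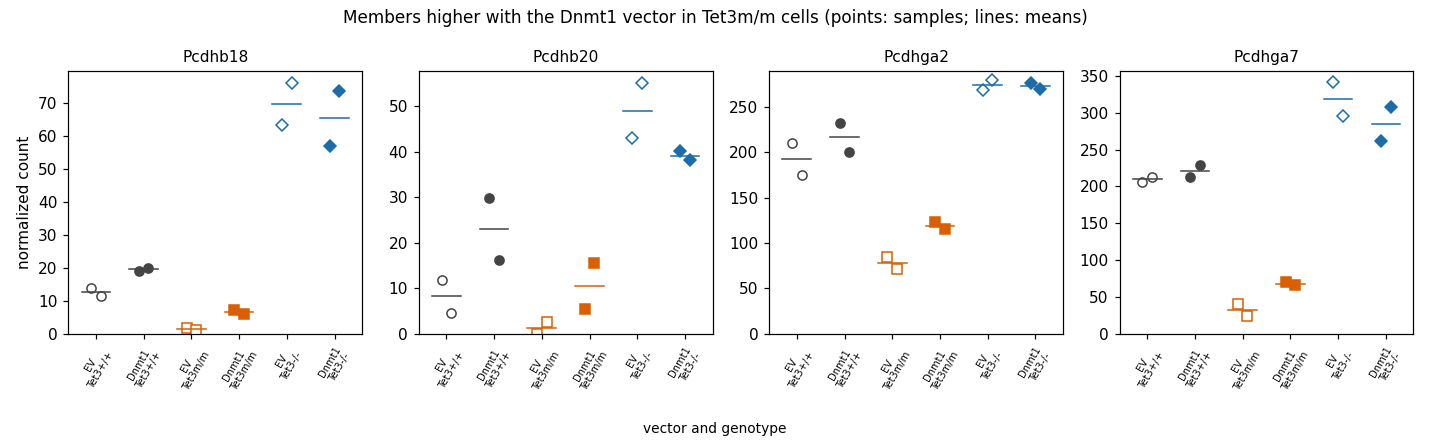
Normalized counts of Pcdhb18, Pcdhb20, Pcdhga2 and Pcdhga7 in each sample of the Dnmt1 experiment by genotype and vector (open points EV, filled points Dnmt1, lines group means). In Tet3m/m cells the Dnmt1 samples lie above the EV samples in each gene but below the Tet3+/+ samples of Pcdhga2 and Pcdhga7.

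The Tet3-CD experiment had no replicates, so its ratios are descriptions of single libraries and carry no test. Of 35 listed members, 33 had a mean of at least 10. With Tet3-CD, 5 members were more than 1.5 times higher than with EV in Tet3+/+ cells, where 6.11% of all 17481 genes were, and 3 were lower, where 7.3% were. In Tet3m/m cells 2 were higher (all genes 4.58%) and 7 lower (5.53%), and in Tet3-/- cells 11 were higher (9.89%) and 3 lower (11.6%). The median log2 ratio of the members was 0.29, -0.09 and 0.31 in Tet3+/+, Tet3m/m and Tet3-/- cells, and between -0.02 and 0.00 for all genes.

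Pcdhgc3 hardly moved, with 1452 and 1489 normalized counts for EV and Tet3-CD in Tet3+/+, 1312 and 1317 in Tet3m/m and 1069 and 1167 in Tet3-/- cells. Pcdhb18 had the largest fall, from 26.1 to 7.51 in Tet3m/m cells, and the largest rise was that of Pcdha11, from 5.01 to 22.7 in Tet3-/- cells; these values are small counts of reads. Pcdhgb5 rose from 79.2 to 182 in Tet3-/- cells, with 120 and 147 in Tet3+/+ and 102 and 143 in Tet3m/m cells. Many members past 1.5-fold lay at low levels, and with a minimum mean of 50, 5, 2 and 7 remained in Tet3+/+, Tet3m/m and Tet3-/- cells.

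The EV samples of this experiment give a further view of the genotypes. EV Tet3m/m cells had 5 members more than 1.5 times higher than EV Tet3+/+ cells (all genes 20.2%) and 10 lower (16.1%), 8 of the latter beta genes. Pcdhb18, Pcdhb20 and Pcdhb21 were lower in Tet3m/m cells, with 26.1, 18.6 and 22.3 against 44.9, 44.9 and 53.4, the direction they had on day 3 and in the Dnmt1 experiment. Pcdhb22, which was also lower in Tet3m/m cells in those samples, was not lower here, with 207 against 186. Pcdhga12 was higher, with 132 against 64.1. EV Tet3-/- cells had 2 members higher (15.4%) and 7 lower (11.7%), so the higher levels of the Dnmt1 experiment were not seen: the beta sum was 577, 421 and 463 and the gamma sum 3688, 3526 and 3137 in EV Tet3+/+, Tet3m/m and Tet3-/- cells. The fibroblast sum in these samples was 33145, 30915 and 25246, an order that again differed from that of the Dnmt1 experiment. Of the 9 markers, Lum was at 0 in 2 of these 6 samples and the others were at 0 in none, with Dcn between 93.1 and 247. The summed pluripotency markers were 7043, 15428 and 11197 in EV Tet3+/+, Tet3m/m and Tet3-/- cells. The median log2 ratio on chromosome 8 was 0.10 in the EV Tet3-/- sample, unlike in the Dnmt1 experiment. The part of these in the members' differences was not tested.

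**Figure D5:**
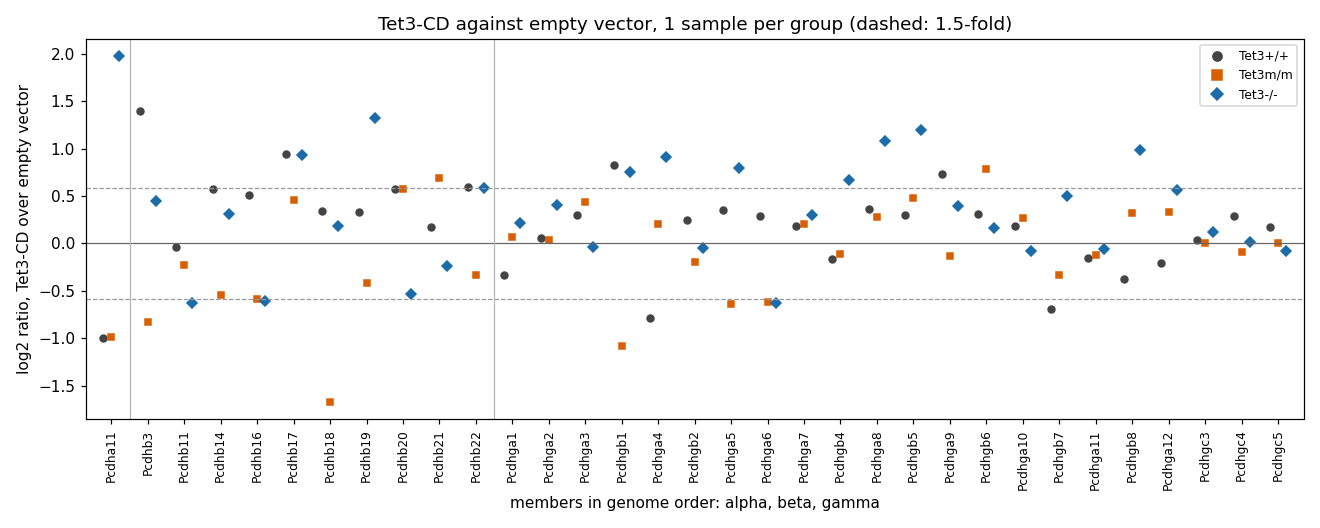
Log2 ratio of Tet3-CD over the empty vector for 33 members in genome order, 1 library against 1 in each genotype (circles Tet3+/+, squares Tet3m/m, diamonds Tet3-/-); dashed lines mark 1.5-fold. The ratios scatter on both sides of 0 in each genotype, and Pcdhgc3 stays near 0 in all.

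Genes around the family and of its known machinery were read from lists. The non-clustered protocadherins are related adhesion proteins encoded elsewhere. Of 11 tested, 0 rose and 5 fell in day 3 Tet3m/m cells, 2 rose and 5 fell in EV Tet3m/m cells and 8 rose and 0 fell in EV Tet3-/- cells, while day 3 Tet3-/- cells had no call. Pcdh18 had 1270.2, 1041 and 1046 normalized counts in day 3 Tet3+/+ and 462, 415 and 446 in Tet3m/m samples (log2 fold change -1.34, limma adjusted p = 0.00015). With EV it had 797 and 756 in Tet3+/+ and 47.5 and 91.2 in Tet3m/m samples, and the Dnmt1 vector raised it to 216 and 225 in the latter (1.73, limma adjusted p = 9.4e-07). With the Dnmt1 vector 2 of the 11 rose in Tet3+/+ cells, 3 in Tet3m/m cells and 0 in Tet3-/- cells.

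Of 16 tested genes that flank the clusters, 2 rose in day 3 Tet3m/m cells, Taf7 and Dnd1, and 1 rose in day 3 Tet3-/- cells, Arap3. Taf7, a subunit of the general transcription factor TFIID, lies between the beta and gamma clusters and had 1880.3, 2099 and 2112 normalized counts in Tet3+/+ and 3428, 3274 and 3354 in Tet3m/m samples (log2 fold change 0.72, limma adjusted p = 0.00057). It was also higher with EV (0.68), where 5 of 11 beta genes on its 5′ side and 13 of 21 gamma genes on its 3′ side fell. With EV 2 flanking genes rose and 2 fell in Tet3m/m cells, and 1 rose and 1 fell in Tet3-/- cells.

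Of 14 genes for CTCF and cohesin, none was called by limma in either mutant on day 3 or in EV Tet3m/m cells, and Esco2, which acetylates cohesin, fell in EV Tet3-/- cells (log2 fold change -0.83). Of 8 chromatin repressors, Cbx3, which encodes the heterochromatin protein HP1 gamma, was lower in Tet3m/m cells on day 3 (-1.12) and with EV (-0.81), Ehmt2 was lower on day 3 (-0.64), and none was called in Tet3-/- cells. Of 9 genes that write or read DNA methylation, 1 rose in day 3 Tet3m/m cells (Dnmt3l, 1.30), none was called in day 3 Tet3-/- cells and 1 rose in EV Tet3m/m cells (Zbtb38, 0.63). In EV Tet3-/- cells 1 rose, while Dnmt3l (-1.88) and Dnmt3b (-0.67) fell. Of 6 demethylation genes, Tet3 and Gadd45a (-0.82) fell in day 3 Tet3m/m and Tet3 in day 3 Tet3-/- cells. In EV Tet3m/m cells Tet1 (0.90) and Tet2 (1.16) rose and Tet3 and Gadd45b (-0.78) fell, and in EV Tet3-/- cells Tet1 fell (-0.86). Of 12 partners of the cytoplasmic tails, only Ptk2b, a kinase, was called in a mutant against Tet3+/+, in EV Tet3-/- cells (1.09).

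Of the cell type lists, 0 of 10 neural progenitor markers rose and 7 fell in day 3 Tet3m/m cells, and 2 rose and 5 fell with EV. In Tet3-/- cells the counts were 1 and 2 on day 3 and 4 and 3 with EV. Neuron markers rose and fell at 1 and 7 of 10 in day 3 Tet3m/m, 1 and 0 in day 3 Tet3-/-, 4 and 1 of 9 in EV Tet3m/m and 6 and 0 in EV Tet3-/- cells. The 8 pluripotency markers were not called on day 3, with 7 higher and 1 lower in EV Tet3m/m and 7 lower in EV Tet3-/- cells. Endoderm markers rose at 1 of 8 in day 3 Tet3m/m and 7 in EV Tet3m/m cells, and 1 rose and 6 fell in EV Tet3-/- cells. Mesoderm markers rose at 1 of 7 in day 3 Tet3m/m cells, rose and fell at 2 each in EV Tet3m/m cells and at 1 and 3 in EV Tet3-/- cells. Fibroblast markers had 1 rise in day 3 Tet3m/m cells and no call in day 3 Tet3-/- cells.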

How the data were processed

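RNA-seq of 26 samples was used. The authors trimmed reads with Trim Galore 0.6.7, aligned them with STAR 2.7.9a, counted them per gene with featureCounts (assigning a read to the gene with the largest overlap) and divided each sample by its DESeq2 size factor; the deposited signal is this normalized count. Every value was a whole multiple of the value of 1 read (tolerance 0.01 reads), so reads were recovered. The methods name mm39 and the labels an earlier build, so no coordinates are given; gene order and exon lengths come from RefSeq on GRCm38. All 3 tables were scaled separately.

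Members and gene lists were chosen with earlier results of these data known. Values plus a pseudocount of 1 were log2-transformed, genes with a mean of at least 10 were kept, and all groups of an experiment entered the same limma model (version 3.58.1 in R 4.3.3, empirical Bayes with trend). P-values were two-sided and adjusted by the Benjamini-Hochberg method over all genes tested; "called", "rose" and "fell" mean an adjusted p below 0.05 and a fold change above 1.5. Fold changes are on the log2(value + 1) scale and understate changes of low genes. edgeR 4.0.16 and DESeq2 1.42.0 on recovered reads, other pseudocounts and filters, only the compared groups, the replicate number as a block and each sample left out were alternatives. The scripts were tested on simulated counts.

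Named members were the 3 highest of each cluster in day 3 Tet3+/+ cells, the C-type genes, and every called member or, above 6 in a direction, the 6 with the largest fold change; others are said to be named later. Listed genes of other families were named only where called, at most 3 per list and comparison, beside Tet3 and Dnmt1. The EV Tet3+/+ columns of the Dnmt1 experiment share a name and are called a and b. WGBS, hmeDIP and CUT&Tag were not analysed here. Strand use in counting is not given in the sources used here, so a member and an antisense transcript cannot be told apart.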

Additional observations from a re-analysis of the deposited data

How the results depend on the processing

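No result reversed its direction under any alternative. The count of called members was within 1.5 times of the reported one in 217 of 250 alternatives. The cluster medians stayed the same in 548 alternatives and moved in 83. Calls of single members were kept in 1493 alternatives and lost in 125. On day 3, DESeq2 called 7 in place of 4 in Tet3m/m cells and 1 in place of 0 in Tet3-/- cells; the compared groups alone gave 1 in Tet3-/- cells and 0 in place of 7 between the mutants. Leaving out each sample gave 1 to 5, 0 to 1 and 1 to 6 in these 3 comparisons. With EV it gave 14 to 20 in Tet3m/m cells, 14 to 23 in Tet3-/- cells and 24 to 27 between the mutants, and a minimum mean of 50 gave 12 in Tet3-/- cells and 16 between the mutants. For Dnmt1 against EV, Tet3m/m cells had 2 to 4 called members with a sample left out, 2 with a pseudocount of 5, 2 with a minimum mean of 50, 2 by DESeq2 and 1 with only the compared groups; Tet3-/- cells had 1 with only the compared groups, and the difference of Tet3m/m from Tet3+/+ cells had 0 to 1 with a sample left out. In the Tet3-CD experiment a minimum mean of 50 left 5, 2 and 7 members past 1.5-fold with Tet3-CD in Tet3+/+, Tet3m/m and Tet3-/- cells, and 6 and 2 with EV in Tet3m/m and Tet3-/- cells; that filter removes low members by construction, and for the other changes the cause was not tested. A lone sample left in a group is assumed to vary like the other groups.

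The replicate numbers do not pair the samples: deviations of same-numbered samples from their group means correlated between -0.10 and 0.08 in the 7 pairs of day 3 and between -0.05 and 0.03 in the 20 pairs of the Dnmt1 experiment. With a replicate block, 5 members were called for Tet3m/m and 0 for Tet3-/- against Tet3+/+ cells on day 3 and 2 in place of 7 between the mutants; it gave 26 between the mutants with EV, and 3 and 0 for Dnmt1 in Tet3m/m and Tet3-/- cells. The block could not be fitted to comparisons with EV Tet3+/+, whose columns carry no number. Depth limits the alpha genes and most beta genes most, as many of them rest on fewer than 30 reads in a sample.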
